A study of Mus musculus with 7 samples.

Results

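The type I interferon antiviral genes examined here were Rsad2, Ifit1, Ifit2, Ifit3, Oas2, Oasl2, Isg15, Usp18, Mx1 and Irf7, taken as effectors typical of that response. They were read on all probe sets to which the platform annotation gives one of these symbols and no other. The rule found 11 of the 22690 probe sets on the array, and these stood for 9 of the 10 genes, out of 12393 genes with such a probe set. The only probe set naming Isg15 also names the pseudogene Gm9706, so no level is given for Isg15. The probe sets were measured in 3 Met1 and 4 DB7 tumours, both grown as transplants in mice. Met1 and DB7 are mammary tumour lines that began in mice carrying a polyoma middle T transgene, and both groups therefore share that origin. Met1 is known for frequent metastasis and DB7 for rare metastasis. The labels name neither host strain, age, transgene allele nor treatment, and they describe transplants where the design text describes tumours of outcrossed animals. Each line is a single line, so line, metastatic behaviour and any difference in transgene allele cannot be told apart. Nothing states that each array came from its own animal. The p-values below therefore cover only the variation among the 7 arrays, part of which may be technical. Of 8 epithelial markers, 7 passed the filter on dim probe sets, and Krt8, Krt18 and Epcam lay between 11.35 and 12.73 on all 7 arrays (log2). The keratin gene Krt19 was dim, at 6.07 to 6.59 in Met1 and 5.77 to 6.77 in DB7.

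Type I interferons are cytokines that cells release when they sense foreign or misplaced nucleic acid. They bind the receptor pair IFNAR1 and IFNAR2, and the kinases JAK1 and TYK2 then activate a transcription factor complex that contains IRF9. This complex binds interferon-stimulated response elements, whose core repeats the letters GAAA, and switches on genes that block viral replication. In tumours the same programme can run in the tumour cells, in the stroma or in immune cells. In bulk tissue a change in the number of such cells and a change in the RNA per cell cannot be told apart.

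The members moved together on the arrays, as described below, and their promoters are shown as a description. Any part of the promoters in that movement was not tested. RefSeq's promoter table (GRCm38.p6) matched 7 of the 10 genes: Rsad2, Ifit1, Ifit2, Ifit3, Oasl2, Isg15 and Irf7. The response element core was searched as GAAA, any 2 bases and GAAA again, on both strands in the 250 bases before the gene start, with overlapping matches counted. It was present in 4 of these 7 genes, namely Rsad2, Ifit1, Ifit3 and Isg15, and in 3.46% of the 27025 genes in the table. It was not particular to the members: of the lists described below, 7 of 16 interferon gamma genes in the table (43.8%) and 9 of 35 other interferon-stimulated genes (25.7%) also held it. For Rsad2 the upstream stretch lies at chr12:26456453-26456702 on the minus strand, and its match begins 120 bases before the gene start. For Ifit1 the 30 bases at chr19:34640785-34640814 hold a pair of matches, beginning 104 and 85 bases before the start. For Ifit3 the match shown lies at chr19:34583407-34583436 and begins 122 bases before the start. Both Ifit genes lie on the plus strand. All are written 5′ to 3′ in the direction of the gene, and capitals mark the core, which here reads as its reverse complement, TTTC, any 2 bases and TTTC.
Rsad2: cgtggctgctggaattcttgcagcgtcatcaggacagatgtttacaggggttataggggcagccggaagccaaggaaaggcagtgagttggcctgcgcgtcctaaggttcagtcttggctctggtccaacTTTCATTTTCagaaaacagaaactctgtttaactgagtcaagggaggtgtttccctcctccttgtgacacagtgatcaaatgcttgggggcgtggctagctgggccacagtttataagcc
Ifit1: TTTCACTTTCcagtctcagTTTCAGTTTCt
Ifit3: TTTCAGTTTCtactttcctcttccctttca
A match is a description of letters and does not show binding. No match in the windows of Ifit2, Oasl2 and Irf7 says only that these letters are not in those windows.

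Met1 tumours carried more transcript of every antiviral gene measured than 3 of the 4 DB7 tumours did, while the remaining DB7 tumour, DB7 1, was high in all of them. On all 11 probe sets every Met1 array lay above DB7 2, DB7 3 and DB7 4, an arrangement found for 13.2% of all 22626 probe sets that are no controls. DB7 1 was set apart here because it was high on these same probe sets, so this count is no independent support for a rise. On all 11, DB7 1 also lay above the other DB7 arrays, which held for 23.6% of all probe sets. On 6 of the 11, DB7 1 exceeded each other DB7 array by at least 1 on the log2 scale, against 0.203% of all probe sets. On 4 of the 11, those of Ifit1, Oas2, Oasl2 and Irf7, the gap between DB7 1 and the next DB7 array passed Dixon's critical value for an outlier, which 1.51% of all probe sets did with DB7 1 on top. With DB7 1 included, the lines did not overlap on 2 of the 11 probe sets, both of Rsad2. All probe sets gave Met1 above DB7 without overlap in 11.2% of cases. The values below are log2 probe set values, and levels of different probe sets are not set against each other.

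**Figure D1:**
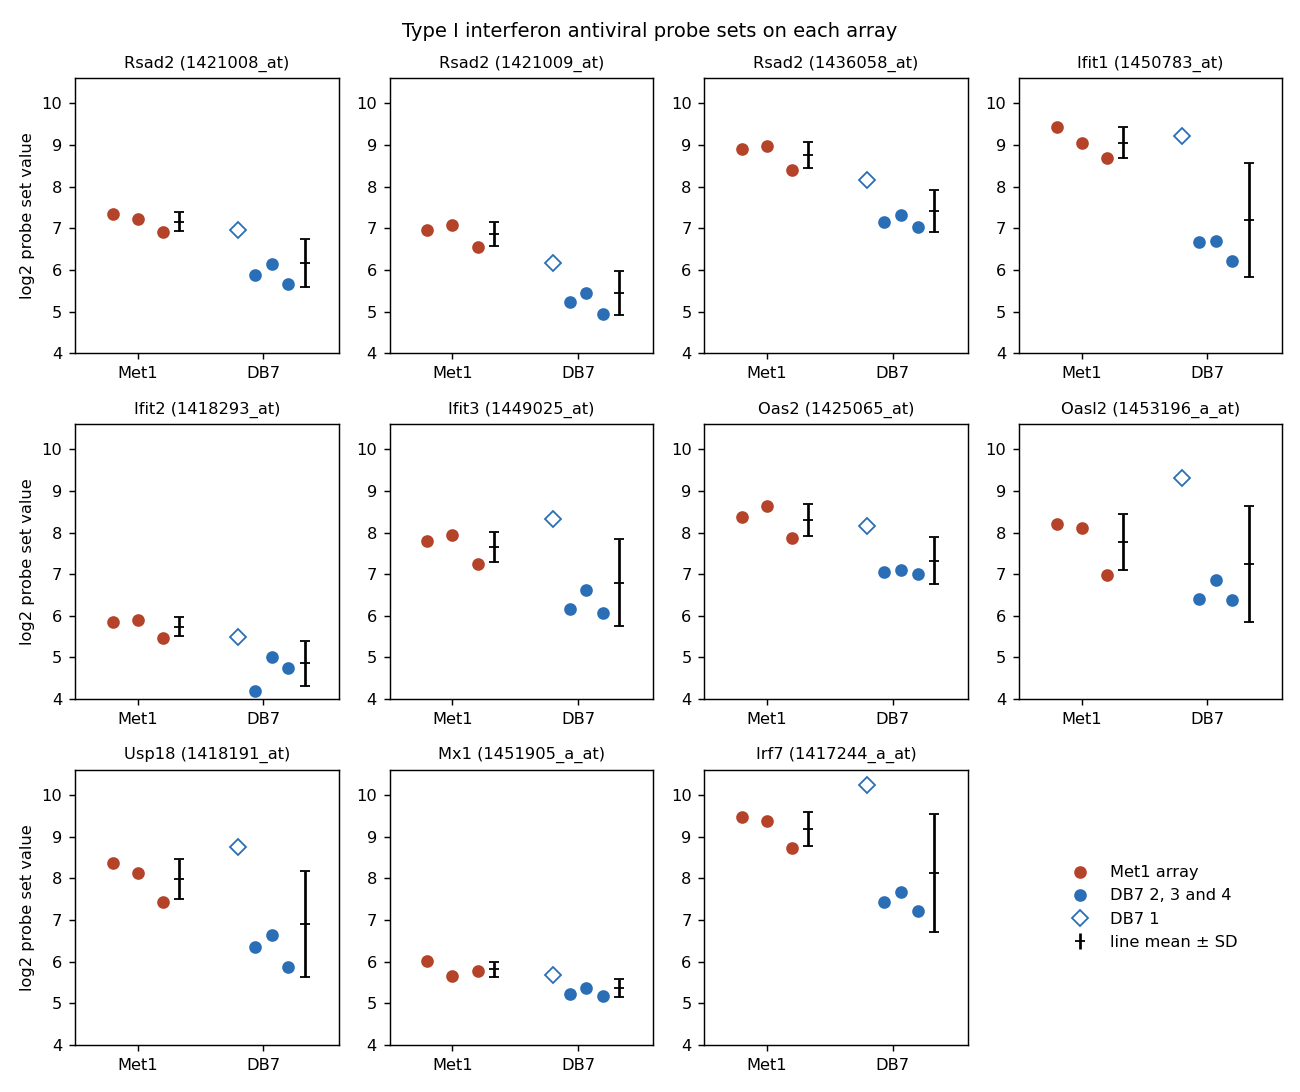
Each panel shows 1 probe set, with its log2 value on the vertical axis for the 3 Met1 arrays (red) and the 4 DB7 arrays (blue; DB7 1 is the open diamond), and the line mean ± SD in black. DB7 1 is the highest DB7 array in every panel, and the other 3 DB7 arrays lie below all Met1 arrays in every panel.

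Rsad2 encodes viperin, a radical SAM enzyme that makes a chain-terminating nucleotide and restrains many viruses. Its probe set 1436058_at measured 8.91, 8.97 and 8.39 in Met1 1 to 3, against 8.16, 7.15, 7.31 and 7.04 in DB7 1 to 4. No DB7 array reached the lowest Met1 array, and DB7 1 stood between the rest of its line and Met1. The means were 8.76 ± 0.32 in Met1 and 7.41 ± 0.51 in DB7 (SD, n = 3 and 4), a 2.53-fold rise in Met1 (difference 1.34, SE 0.26; limma, adjusted p = 0.00487). The call held in all 18 alternative fits, with adjusted p from 0.000228 to 0.0271. The other probe sets of the gene had the same order of lines. Probe set 1421009_at measured 6.96, 7.09 and 6.55 in Met1, against 6.17, 5.24, 5.46 and 4.94 in DB7. It lay above the array median on only 2 arrays and was fitted without the filter on dim probe sets, where it rose 2.67-fold (limma, adjusted p = 0.00546). Probe set 1421008_at measured 7.34, 7.23 and 6.92 in Met1, against 6.97, 5.88, 6.14 and 5.67 in DB7, so that DB7 1 just overlapped Met1 3. It rose 2-fold (SE 0.27 on the log2 scale; limma, adjusted p = 0.0228). Leaving out Met1 1, Met1 2, DB7 2 or DB7 3 ended this call (adjusted p = 0.0872, 0.0802, 0.0575 and 0.0547). On chromosome 12, 10 of the 20 tested genes nearest to Rsad2, taken 10 to a side in RefSeq's order, also rose in Met1 and 1 fell (limma), with a median difference of 0.30. Over all 7482 tested genes, each read on its brightest tested probe set, 13% rose and 17.9% fell. The same count was 2 rises and 4 falls of 20 around the Ifit genes and 1 rise and 2 falls of 20 around each of Oas2, Oasl2 and Usp18. It was 3 rises and 1 fall of 20 around Irf7 3 rises and 0 falls of 15 around Mx1, and 5 rises and 0 falls of 12 around Isg15 (median difference 0.23). The part of the surrounding genes in the members' values was not tested.

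The Ifit genes encode tetratricopeptide repeat proteins that bind viral RNA and hinder its translation. Ifit1, whose human counterpart recognises the 5′ ends of foreign RNA, measured 9.43, 9.05 and 8.68 in Met1, against 9.21, 6.68, 6.69 and 6.21 in DB7. DB7 1 fell inside the Met1 range, and the other DB7 arrays lay far below every Met1 array. Ifit1 rose 3.62-fold in Met1 (difference 1.86, SE 0.62; limma, adjusted p = 0.0492). This call was lost without the filter on dim probe sets (adjusted p = 0.0696), and it held in 7 of 17 alternatives, whose adjusted p ran from 8.26e-05 without DB7 1 to 0.155 without Met1 1. Of the 7 fits lacking 1 array, the one without DB7 1 kept it, and the other 6 had adjusted p of 0.0891 and above. Ifit3 measured 7.80, 7.93 and 7.25 in Met1, against 8.32, 6.17, 6.62 and 6.07 in DB7, with DB7 1 above every Met1 array. Its difference was 0.87 (SE 0.48) and did not pass (limma, adjusted p = 0.211). The near-identical paralog Ifit3b lies in the same cluster, so signal from either gene cannot be told apart at this probe set. Ifit2, whose protein is also linked to cell death, measured 5.84, 5.91 and 5.47 in Met1, against 5.50, 4.19, 5.0 and 4.75 in DB7. These values lie below the array median on all 7 arrays, so its fold of 1.84 is approximate (limma without the filter, adjusted p = 0.0469). Ifit2 and Ifit3 are immediate neighbours on chromosome 19 in RefSeq's gene table, with Ifit1 in the same run of genes.

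Oas2 and Oasl2 belong to the oligoadenylate synthetase family, whose active members make 2′-5′ oligoadenylates that switch on the RNA-degrading enzyme RNase L. Oas2 measured 8.38, 8.64 and 7.88 in Met1, against 8.16, 7.06, 7.09 and 7.0 in DB7. The 3 lower DB7 arrays were close to each other (SD 0.05), and DB7 1 lay between Met1 3 and Met1 1. Oas2 rose 1.96-fold in Met1 (difference 0.97, SE 0.29; limma, adjusted p = 0.0318), and the call held in 12 of 18 alternatives. With 1 array left out it held without Met1 3 and without DB7 1, and was lost without any of the other 5, up to an adjusted p of 0.128 without Met1 2. Oasl2, which carries ubiquitin-like domains, measured 8.20, 8.12 and 6.99 in Met1, against 9.30, 6.40, 6.86 and 6.38 in DB7. It had the widest Met1 spread of the members (SD 0.68, n = 3), and Met1 3 lay just above DB7 3. The difference was 0.54 (SE 0.67) and did not pass (limma, adjusted p = 0.588; 95% confidence interval in the fit without the filter from -0.96 to 2.03).

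Usp18 is the protease that removes ISG15 from proteins and also dampens signalling at the interferon receptor, and so acts as a brake. It measured 8.36, 8.13 and 7.44 in Met1, against 8.76, 6.34, 6.65 and 5.88 in DB7. DB7 1 exceeded every Met1 array, and the difference of 1.07 (SE 0.59) did not pass (limma, adjusted p = 0.208). Mx1 encodes a dynamin-like GTPase that blocks influenza virus, and many inbred mouse strains carry a defective allele. RefSeq's table lists it as a transcribed pseudogene in the C57BL/6J genome. Its probe set measured 6.01, 5.65 and 5.78 in Met1, against 5.68, 5.23, 5.37 and 5.18 in DB7, below the array median on all 7 arrays. Its difference of 0.45 is therefore approximate (SE 0.13; limma without the filter, adjusted p = 0.0478).

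Irf7 is the transcription factor that amplifies type I interferon production once a first round of interferon has induced it. It measured 9.47, 9.38 and 8.72 in Met1, against 10.24, 7.42, 7.67 and 7.21 in DB7. DB7 1 was the highest of all arrays and the other DB7 arrays the lowest. The difference of 1.05 (SE 0.65) did not pass (limma, adjusted p = 0.256), and the spread within DB7 was wide (SD 1.42, n = 4). The spread within DB7 without DB7 1 was 0.23.

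In all, 8 of the 11 member probe sets passed the filter on dim probe sets, and 4 of these rose in Met1 and 0 fell in limma: Rsad2 on both of its tested probe sets, Ifit1 and Oas2. Among all 11704 tested probe sets, 13.4% rose and 17.6% fell. The count of 4 became 1 without Met1 1, Met1 2, DB7 2 or DB7 3, 2 without DB7 4, 3 without Met1 3 and 8 without DB7 1. The single member called in each of the fits that gave 1 was the probe set 1436058_at of Rsad2. The filter keeps a probe set that is bright on 3 arrays, which the Met1 arrays can supply alone, so the fit without it is given beside. There, 6 of the 11 rose and 0 fell (limma), against 7.92% and 9.87% of all 22626 probe sets. These were the 3 probe sets of Rsad2 with Ifit2, Oas2 and Mx1. The median difference over the 11 was 1.00, against -0.05 over all probe sets.

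Much of the DB7 spread of the members rested on 1 array. The median SD of a member probe set was 0.36 within Met1 and 0.57 within DB7, against 0.09 and 0.13 over all probe sets. Without DB7 1 it was 0.26 within DB7, still above the 0.12 over all probe sets. Without DB7 1, all 8 tested members rose in Met1 (limma; 13.6% of all tested probe sets rose in that fit), and all 11 rose without the filter (7.87% of all). In that last fit the differences ran from 0.55 for Mx1 (1.47-fold; adjusted p = 0.0094) to 2.53 for Ifit1 (5.76-fold; adjusted p = 0.000153). Irf7 rose by 1.76, Usp18 by 1.69, Ifit3 by 1.37 and Oasl2 by 1.22 (limma without the filter, adjusted p = 0.000848, 0.00343, 0.00274 and 0.0275). DB7 1 was the highest DB7 array on every member, so leaving it out raises the difference by construction, and these calls are no independent support for a rise.

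**Figure D2:**
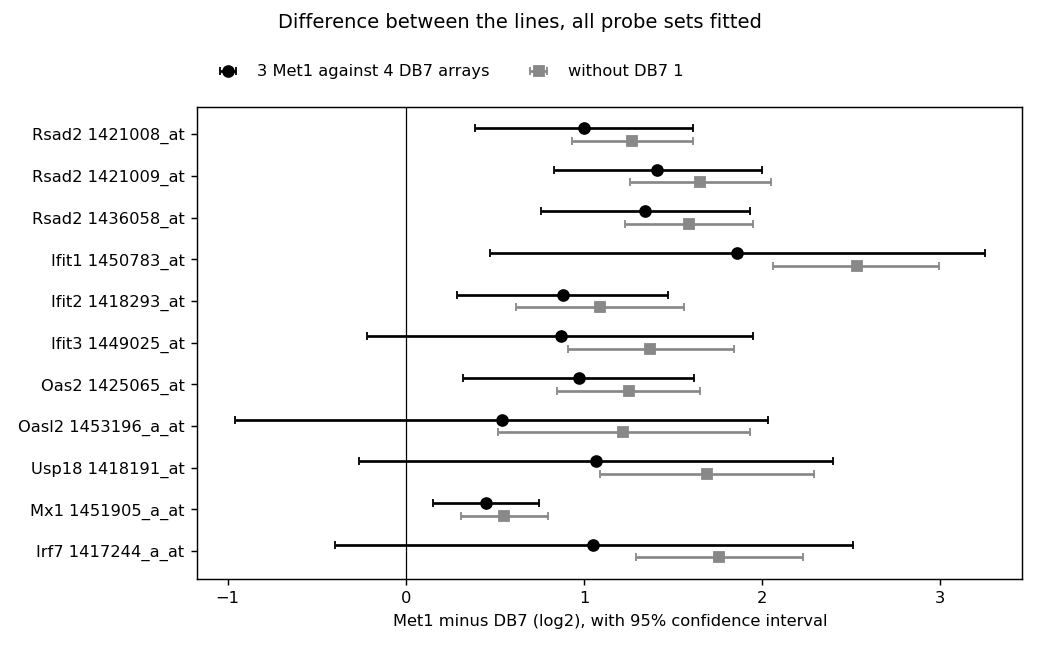
Points give Met1 minus DB7 (log2) with the 95% confidence interval for each member probe set, fitted on all probe sets without the filter; black circles use all 7 arrays and grey squares leave out DB7 1. Intervals of Ifit3, Oasl2, Usp18 and Irf7 span 0 with all arrays, and no interval spans 0 without DB7 1.

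The height of DB7 1 was not the same across the members. The Met1 mean exceeded the mean of DB7 2, DB7 3 and DB7 4 by 1.76 for Irf7, 1.22 for Oasl2, 2.53 for Ifit1, 1.69 for Usp18 and 1.37 for Ifit3. DB7 1 exceeded the same 3 arrays by 2.81 for Irf7, 2.75 for Oasl2, 2.68 for Ifit1, 2.47 for Usp18 and 2.03 for Ifit3. For these 5 genes DB7 1 thus stood above the Met1 mean, by 1.53 for Oasl2 and by 0.15 for Ifit1. Rsad2, Ifit2, Oas2 and Mx1 went the other way. The probe set 1436058_at of Rsad2 was higher by 1.59 in Met1 and by 1.00 in DB7 1, and Oas2 was higher by 1.25 in Met1 and by 1.11 in DB7 1. DB7 1 is a single array, and these differences between it and Met1 were not tested. Within Met1 the third array was the lowest on 10 of the 11 probe sets, Mx1 being the exception, against 27% of all probe sets.

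**Figure D3:**
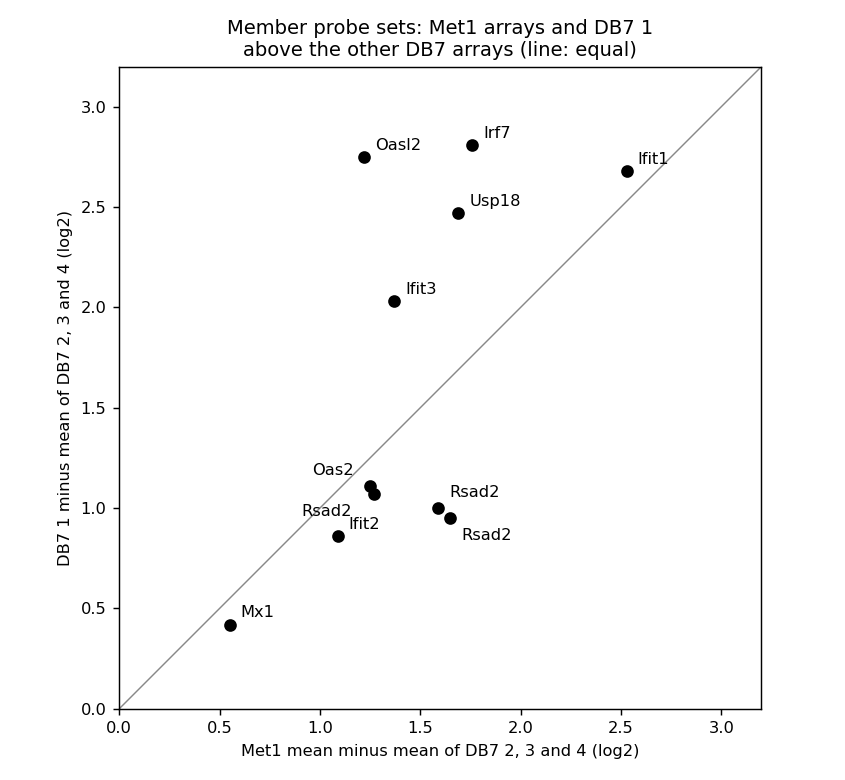
Each point is a member probe set, with the Met1 mean (horizontal axis) and DB7 1 (vertical axis) given as log2 differences from the mean of DB7 2, DB7 3 and DB7 4; the grey line marks equality. Irf7, Oasl2, Usp18, Ifit3 and Ifit1 lie above the line, and Rsad2, Oas2, Ifit2 and Mx1 lie below it.

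Arrays moved in step across the members. Of each array's deviation from its line mean, the correlation between pairs of the 9 member genes ran from 0.640 to 0.992, with a median of 0.945 over the 7 arrays. Without DB7 1 the median was 0.755 over 6 arrays, and the range was -0.118 to 0.981. The 8 other genes whose deviations were most like the members' mean were Ifitm3, Adar, Oas3, Oas1a, Zbp1, Rtp4, Ifih1 and Lgals9, with correlations of 0.989 to 0.958 among 312 genes of sufficient spread. These correlations describe 7 arrays that share the height of DB7 1, and without it they were 0.689 for Lgals9 to 0.932 for Adar. All 8 are interferon-stimulated genes or nucleic acid sensors of the lists below. Adar, the RNA-editing adenosine deaminase, measured 7.81, 7.64 and 7.46 in Met1, against 9.06, 7.71, 7.84 and 7.68 in DB7. Oas1a, another oligoadenylate synthetase, measured 9.97, 9.83 and 9.39 in Met1, against 9.95, 8.23, 8.33 and 7.66 in DB7. Oas1a was thus high in Met1 and in DB7 1, whereas Adar was high in DB7 1 alone.

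Few ligand and receptor genes were bright enough to be tested. Of 12 ligand and receptor genes on the array, 8 lay below the array median on all 7 arrays, and 3 were tested. The interferon beta gene Ifnb1 measured 5.75 to 5.79 in Met1 and 5.76 to 5.94 in DB7, all below the array medians. The receptor gene Ifnar1 rose by 0.26 in Met1 (SE 0.08; limma, adjusted p = 0.0454), which was 1 rise and 0 falls among the 3 tested. This call was lost without the filter and without any single array other than DB7 4 (adjusted p = 0.0604 without the filter and up to 0.143 without Met1 1). Ifnar2 differed by 0.24 (SE 0.09; limma, adjusted p = 0.0757).

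Of 13 tested signal transducers, 0 rose in Met1, also at an unadjusted p under 0.05, and 3 fell (limma), beside 13% and 17.9% of all tested genes. Socs3, a feedback inhibitor of cytokine signalling, fell by 0.87, Irf1, a transcription factor of the interferon gamma response, fell by 0.45, and the kinase gene Jak1 fell by 0.43 (limma, adjusted p = 0.00195, 0.0352 and 0.0429). The call of Jak1 was lost without Met1 2, Met1 3, DB7 1, DB7 2 or DB7 4, and that of Irf1 without Met1 2, Met1 3, DB7 3 or DB7 4 (adjusted p up to 0.158 and 0.138, both without Met1 3), whereas that of Socs3 was kept in each of these fits. Irf9, the DNA-binding subunit of the interferon-activated complex, measured 7.76, 7.49 and 7.41 in Met1, against 7.69, 7.02, 6.91 and 6.91 in DB7. It repeated the order of the members, with DB7 1 apart from its line, but did not pass (difference 0.42, SE 0.19; limma, adjusted p = 0.127). Without DB7 1 it rose by 0.60 (limma, adjusted p = 0.00342). Stat2, its partner, differed by 0.01 (SE 0.15). It measured 6.81, 6.78 and 6.78 in Met1, against 7.20, 6.57, 6.55 and 6.79 in DB7, so that DB7 1 was its highest array. Without DB7 1 the difference of Stat2 was 0.15 and did not pass (limma, adjusted p = 0.241). Of 9 tested nucleic acid sensor and adaptor genes, 2 rose and 0 fell, also at an unadjusted p under 0.05 (limma). These were Sting1, the adaptor of cytosolic DNA sensing, by 0.38, and Myd88, an adaptor of Toll-like receptors, also by 0.38 (limma, adjusted p = 0.0258 and 0.0269). Each was lost without any single Met1 array, and Sting1 also without DB7 4 and Myd88 without DB7 2 or DB7 3 (adjusted p up to 0.0953 and 0.095).

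Of 27 other interferon-stimulated genes tested, 3 rose and 3 fell in Met1, shares no higher than the 13% and 17.9% of all tested genes, with a median difference of -0.06, against -0.04 over all tested genes. Ifitm2, which bars virus entry at membranes, rose by 0.64. Pml, the scaffold of nuclear bodies, fell by 0.92, Ifi47, a GTPase, fell by 0.90 and the nuclear body gene Sp110 fell by 0.46 (limma, adjusted p = 0.00132, 0.000731, 0.00278 and 0.00319). Cmpk2, the gene next to Rsad2 on chromosome 12, and the ubiquitin ligase gene Trim25 were the other rises, and were named after their values were seen (0.60 and 0.37; limma, adjusted p = 0.0253 and 0.0402). Cmpk2 measured 7.49, 7.13 and 6.80 in Met1, against 6.83, 6.47, 6.49 and 6.37 in DB7. Of the enzymes that attach ISG15, Uba7, the activating enzyme, differed by -0.11 (SE 0.08; limma, adjusted p = 0.363), and Ube2l6, the conjugating enzyme, was too dim to be tested. Without DB7 1, 10 of the 27 rose and 3 fell, with a median of 0.14, where 1000 of all 7482 tested genes rose and 1425 fell. The count of rises was 2 without Met1 3 and 1 without any of the other 5 arrays.

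Genes chiefly induced by interferon gamma were listed together with the ligand gene Ifng and the receptor genes Ifngr1 and Ifngr2. Ifng itself measured 4.45 to 4.68 in Met1 and 4.44 to 4.82 in DB7, all below the array medians, and was too dim to be tested. Between the lines this list ran opposite to the members. Of 18 tested, 13 fell in Met1 and 0 rose, also at an unadjusted p under 0.05 (limma), with a median difference of -0.79. The receptor gene Ifngr2 was among the 13 (difference -0.35; limma, adjusted p = 0.0309). The chemokine gene Cxcl9 measured 6.44, 6.93 and 6.23 in Met1, against 8.68, 9.15, 9.27 and 9.39 in DB7, a fall of 2.59 (SE 0.20; limma, adjusted p = 3.86e-05). The immunoproteasome subunit genes Psmb9 and Psmb8 fell by 2.10 and fell by 1.61, and the chemokine gene Cxcl11 fell by 1.94 (limma, adjusted p = 5.56e-05, 0.000579 and 8.94e-05). Within DB7, DB7 1 was the lowest array for Cxcl9 and Cxcl11. For other genes of the list it was the highest, among them Psmb9, Igtp, Iigp1, Tap1, Tap2, Irgm2, Gbp3 and Gbp6. The mean over the 22 genes of the list on the array was 7.44, 7.51 and 7.09 in Met1, against 8.24 in DB7 1 and 8.01, 8.21 and 8.18 in DB7 2 to 4. The mean over the 9 antiviral members was 8.04, 7.97 and 7.40 in Met1, against 8.15 in DB7 1 and 6.29, 6.59 and 6.19 in DB7 2 to 4. In both means Met1 3 was the lowest Met1 array and DB7 1 the highest DB7 array. With DB7 1 left out, 10 of the 18 fell and 0 rose (limma).

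Markers of other cell types moved with some of these arrays. The mean of 7 B and plasma cell genes was 5.85 to 6.02 in Met1, against 7.13 in DB7 1, 6.0 and 6.20 in DB7 2 and DB7 3, and 7.40 in DB7 4. DB7 4 was thus the highest array for B cell genes and the lowest for the antiviral members, at 6.19. The mean of 8 macrophage genes was 7.70 to 8.04 in Met1, against 8.07 in DB7 1, 7.26 and 7.40 in DB7 2 and DB7 3, and 7.81 in DB7 4. The mean of 8 fibroblast genes was 8.75 to 9.30 in Met1, against 9.39 in DB7 1, 8.24 and 7.89 in DB7 2 and DB7 3, and 8.83 in DB7 4. In both lists DB7 4 lay within the Met1 range. Of 6 markers of plasmacytoid dendritic cells, which release much type I interferon, 3 lay below the array median on every array. Their mean was 6.08 to 6.20 in Met1, against 6.49 in DB7 1 and 6.05, 6.25 and 6.17 in DB7 2 to 4. Bst2, which is both such a marker and interferon-stimulated, measured 7.48 to 8.17 in Met1, against 9.23 in DB7 1 and 7.19 to 7.90 in the others of its line. The mean of 7 dendritic cell genes was 5.42 to 5.45 in Met1 and 5.36 to 5.63 in DB7, and that of 10 T and NK cell genes 5.92 to 6.08 in Met1 and 5.98 to 6.31 in DB7. The mean of 6 neutrophil genes was 6.55 to 6.67 in Met1 and 6.42 to 6.67 in DB7, and that of 7 endothelial genes 6.84 to 7.09 in Met1 and 6.61 to 7.22 in DB7. Apart from the B and plasma cell list, DB7 1 was the highest DB7 array in each of these lists. It was the highest of all arrays for the macrophage, fibroblast, plasmacytoid dendritic, dendritic, T and NK, and endothelial means. This was not so for the B and plasma cell mean. Nor was it so for the mean of the 8 epithelial markers, at 9.71 in DB7 1 against 9.74 to 9.98 in Met1. Of the markers that passed the filter, the macrophage gene Cd14 rose (1 of 6) and the T cell gene Cd3d fell (1 of 3). Of 7 tested epithelial markers, 2 rose and 3 fell in Met1. The luminal transcription factor genes Gata3 and Elf5 rose by 1.58 and 1.46, while Krt18 fell by 1.01, Epcam fell by 0.48 and Krt8 fell by 0.32 (limma, adjusted p = 1.44e-05, 0.000179, 0.000197, 0.00437 and 0.043). Of the markers of plasmacytoid or other dendritic cells, B cells, neutrophils, fibroblasts or endothelium that passed the filter, none passed the test in limma (19 tested, 1 of them a fibroblast gene at an unadjusted p under 0.05). Without the filter, the neutrophil gene S100a8 was higher in Met1 by 0.61 (limma, adjusted p = 0.0101). The dendritic cell gene Ccr7 differed by -0.40 in that fit (limma, adjusted p = 0.0365). Both lay below the array median on all 7 arrays, so these differences are approximate. The part of any of these cells in the antiviral values was not tested.

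**Figure D4:**
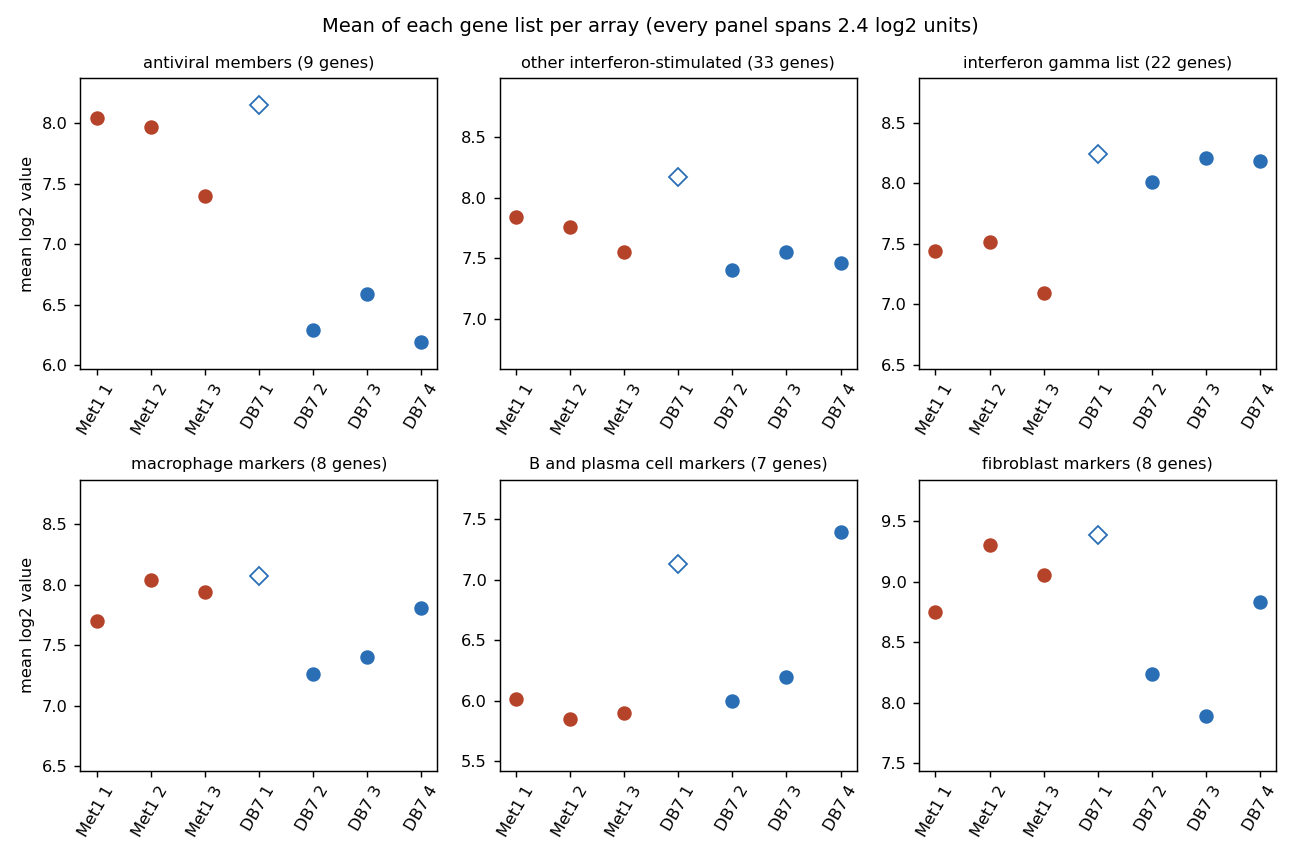
Each panel gives the mean log2 value of a gene list on each array (Met1 red, DB7 blue, DB7 1 as the open diamond), over all genes of the list on the array; every panel spans the same height. DB7 1 lies near Met1 for the antiviral members and near its own line for the mean of the interferon gamma list, and DB7 4 is high for B cell genes and lowest for the members.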

How the data were processed

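RNA of 3 Met1 and 4 DB7 tumours was hybridised to 1-colour Affymetrix arrays, per the labels' protocols. The authors deposited 1 summary per probe set and array, taken here as log2 from its range, since no source states the log base. RMA and MAS5 are both named, with no role, per the submitters' processing notes. Values were used as deposited. The sources used here give neither background correction nor detection calls. Such summaries compress differences near the floor. The number of arrays limits the precision.

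Probe sets were named by GEO's platform annotation. The 64 control probe sets were left out. A probe set was tested where it lay above its array's median on at least 3 of 7 arrays (11704 of 22626). Met1 was compared with DB7 in limma 3.58.1 (R 4.3.3; lmFit, eBayes with intensity trend, group as the only term, two-sided, Benjamini-Hochberg over all tested probe sets, threshold 0.05). Differences are Met1 minus DB7. The fit was tested on simulated data. GRCm38.p6 in RefSeq's tables gave promoters and gene order; 1 stretch of promoter sequence is not reported here. Named were all members and, of each pathway list, up to 4 genes with the smallest p past the threshold, the receptor, ISGylation and IRF9 complex genes, and the 8 genes most like the members. The members, lists and alternatives were chosen with earlier results of these data known. Same-numbered arrays of the lines did not deviate together (correlations -0.17, -0.05 and 0.02), so the numbers were not taken as pairs.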

Additional observations from a re-analysis of the deposited data

Results flagged for a closer look

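The array DB7 1 stood apart from the other 3 DB7 arrays in 5 of the 30 probe sets examined for this, each time as the highest. The gap to the next array, as a share of the whole DB7 range, exceeded Dixon's 95% critical value for 4 samples. Chance alone gives such a gap in about 1 of 20 independent groups. All 5 come from the same array, and the members moved in step across the arrays, so the 5 are not independent of each other. The value in DB7 1 was 9.21 for Ifit1, 8.16 for Oas2, 9.30 for Oasl2, 10.24 for Irf7 and 7.69 for Irf9. The shares were 0.841, 0.918, 0.834, 0.847 and 0.857 in the same order. Among the 8 genes picked for their likeness to the members, DB7 1 had such a gap as the highest array for Adar, Zbp1 and Rtp4 (0.89, 0.898 and 0.918). The other genes picked in that way had no such gap. Of the pathway lists, Dhx58, Parp9, Sp100 and Ddx60 also had it with DB7 1 as the highest array (0.857, 0.851, 0.904 and 0.851). Sp100 and Ddx60 were too dim to be tested. Over all 22626 probe sets, 1.51% had such a gap with DB7 1 as the highest array.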

How the results depend on the processing

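The number of member probe sets that rose in Met1 was 4 and ran from 1 (without Met1 1, Met1 2, DB7 2 or DB7 3) to 8 (without DB7 1) when single arrays were left out, and the number that fell was 0 in every fit. It was 2 under the stricter filter, where fewer probe sets were tested, 11 without the filter and without DB7 1 (chosen after seeing the data), and 8 without DB7 1 and DB7 4. The median difference of the 11 ran from 0.83 to 1.37 without single arrays. With the replicate block 3 rose and 0 fell, Oas2 being lost (limma, adjusted p = 0.0515). Under the same block 0 ligand and receptor genes rose, 1 signal transducer fell and 1 sensor gene rose.

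Over all tested probe sets 1161 to 1597 were higher and 1289 to 2205 lower without single arrays, and 983 and 1319 without probe sets open to cross-hybridisation, where fewer were tested. Ligands and receptors had 0 to 1 rises without single arrays, 2 under quantile normalization, median centring and without DB7 1 and DB7 4, and 0 without the filter (with or without DB7 1) and under the stricter filter. Signal transducers had 0 to 1 rises and 1 to 3 falls without single arrays; without DB7 1 and DB7 4 they had 1 of each, and without the filter and DB7 1, 1 rise. Sensors had 0 to 3 rises without single arrays. Other interferon-stimulated genes had 1 to 10 rises without single arrays, the 10 without DB7 1; they had 5 with array weights, 1 without cross-hybridising probe sets, 11 without the filter and DB7 1, and 7 without DB7 1 and DB7 4. Interferon gamma genes had 10 to 14 falls without single arrays. The difference of Stat2 ran from -0.06 without DB7 2 and without DB7 3 to 0.15 without DB7 1 when single arrays were left out, was 0.23 without DB7 1 and DB7 4, and passed in none of these fits. Where no construction is named, the cause was not tested.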
